A study of Mus musculus with 4 samples.

Results

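Splicing factors and hnRNP proteins were taken as all genes of the array whose single symbol begins like the hnRNP genes (Hnrnp or Hnrp), the SR protein genes (Sfrs or Srsf), or the Sf3a and Sf3b, U2af, Snrp and Prpf genes, together with the numbered Rbm genes. This gave 91 of the 16675 genes tested, measured by 137 of the 29922 probes. By family they were 28 core spliceosome genes (8 Snrp, 7 Sf3, 1 U2af and 12 Prpf) and 63 regulators (16 SR, 18 hnRNP and 29 Rbm). The rule reads names and no measured value, although the gene group was proposed with earlier results of these data known. Symbols are those of an older table of the array, and the current RefSeq symbol is given where it differs.

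The samples were 4 pools of whole hearts from mouse embryos of a C57bl/6 x129 hybrid strain at E9.5 (embryonic day 9.5). Of these, 2 pools were controls, with a wild-type genotype, and 2 were Salv CKO, in which Salvador (Sav1) was deleted conditionally. Sav1 encodes the scaffold of the Hippo kinases, and the comparison shows which transcripts differ in level between these Salv CKO and control pools. The labels name neither the Cre line that deletes the gene nor the number of hearts per pool, so which cells carry the deletion is not known here.

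Before a messenger RNA leaves the nucleus, the spliceosome removes its introns. The U1 particle marks the start of the intron, U2AF and the U2 particle with SF3A and SF3B mark its end, and the U4/U6 and U5 particles, which hold several Prpf proteins, join to form the active machine. SR proteins mostly promote the use of exons and hnRNP proteins often repress it, and in heart muscle such regulators set the isoforms of titin and other sarcomere proteins. The arrays measured transcript abundance at the probes, not splicing itself.

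Each value below is a log2 intensity after quantile normalisation, and each difference is Salv CKO minus control with its standard error from limma (n = 2 pools per group). A gene was called at a limma adjusted p under 0.05 over all 16675 genes. For a single gene the smallest two-sided p of an exact permutation test is 0.333 at this group size. The calls therefore lean on the variance that limma moderates over the whole table. When any 1 of the 4 arrays was left out, limma called 0 genes of the whole table. Genes with an unadjusted p below 0.05 then numbered 3170 to 3428, where the full set of arrays gave 4460. Of the 91 members, 23 to 32 met that level in place of 35.

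Sav1, the targeted gene, stood at 9.56 and 9.30 in the controls and at 9.19 and 9.13 in Salv CKO. Its difference of -0.27 ± 0.13 was not called (limma adjusted p = 0.266), and where its probe lies relative to the deletion is not known here. Marker lists shifted between the same pools, in both directions. Of 16 measured cardiomyocyte markers 8 were called lower and 0 higher, and their summed intensity was 443296 to 481157 in the controls and 389874 to 398301 in Salv CKO, with 5 of them saturated on at least 1 array. The summed neural crest markers were 18603 to 18883 against 56768 to 56855 (6 of 11 called higher), and the neural ones 5480 to 6063 against 12312 to 12877 (4 of 15 called higher and 1 lower). The summed somite markers were 761 to 795 against 3984 to 3994 (3 of 10 called higher), and the endoderm ones 3618 to 3759 against 9031 to 9098 (4 of 11 called higher). Endothelial markers were 23754 to 24591 against 14229 to 14699 (5 of 10 called lower and 1 higher), and proliferation markers 29954 to 30539 against 35869 to 36307 (1 of 10 called higher). A sum of intensities weighs bright genes most. Most of the rise came from 1 gene each in the neural crest (Crabp1, mean log2 13.71 to 15.53), neural (Zic1, 4.08 to 12.10) and somite (Tcf15, 8.49 to 11.57) sums. Pcna (13.27 to 13.79) likewise made most of the rise of the proliferation sum. The median log2 differences were 1.82 for neural crest, 0.49 for neural, 1.00 for somite and 1.30 for endoderm markers. That of the proliferation markers was 0.11, with 6 of the 10 above 0 and 4 below. None of the neural, endoderm or cardiomyocyte markers was below background on all arrays, whereas 2 neural crest markers and 1 somite marker were. In pooled tissue, fewer cells of a type and less RNA per cell cannot be told apart, and the part that these marker shifts play in the results below was not tested.

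In Salv CKO hearts 13 of the 91 genes rose and 3 fell. Over all genes 4.92% were called higher and 5.70% lower, against 14.3% and 3.30% of the members. The risen genes were led by Snrp70, Hnrpk, Hnrnpa2b1, Hnrph1 and Rbm13, between 2.48-fold and 3.98-fold, and the fallen genes were Rbm20, Rbm38 and Hnrnpl. The regulators held 11 of the rises and all 3 falls, the core spliceosome the other 2 rises, which is 17.5% of regulators and 7.14% of core genes called higher. These shares turned with the mean of all probes of a gene, at 9.52% (6 genes) and 17.9% (5 genes), where 3.35% of all genes were called higher and 3.99% lower. The groups did not overlap for 52 members (57.1%), 35 higher and 17 lower, close to the 54.2% of all genes (25.2% higher and 29.0% lower). All 16 called members were above background, set at log2 4, on every array, and none was saturated.

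**Figure D1:**
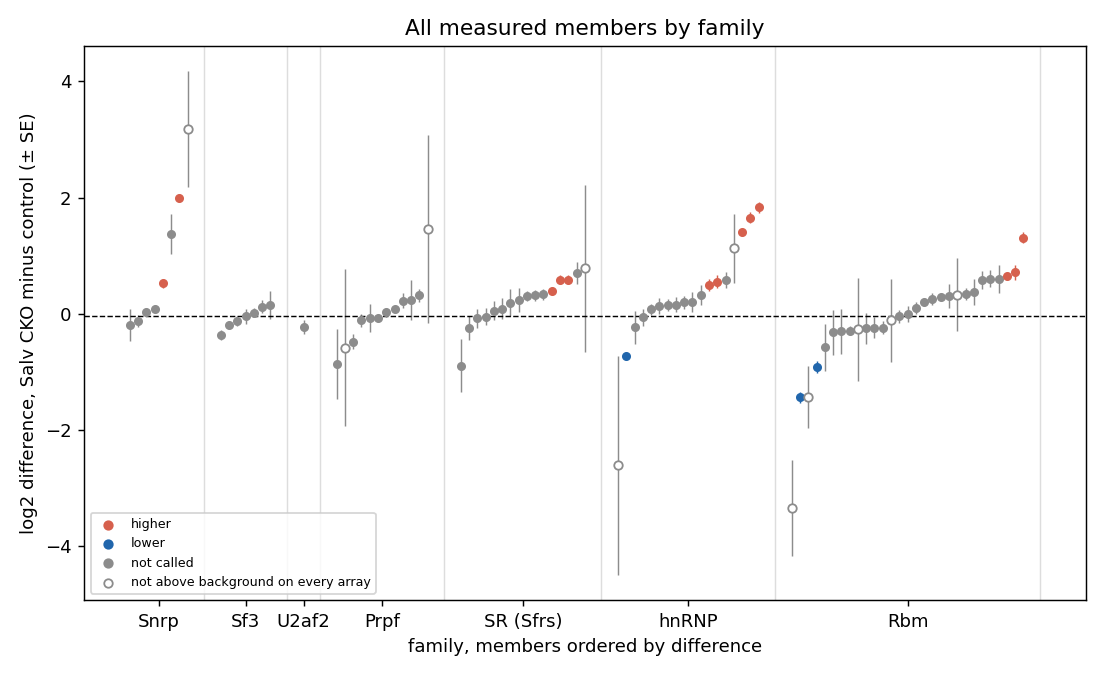
Log2 difference between Salv CKO and control with its limma standard error for each of the 91 genes, ordered within 7 families, with the median of all genes (-0.04) as a dashed line. Coloured points passed the test and open points were not above background on every array; the Sf3, U2af and Prpf families hold no call, while the Snrp, SR, hnRNP and Rbm families hold 2, 3, 6 and 5.

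On their brightest probes, core and regulatory genes differed in how widely they were spread. Among members above background on all arrays, the median size of the difference, without its sign, was 0.15 for the 25 core genes and 0.31 for the 55 regulators, beside 0.30 for all genes. The median signed difference was 0.02 for the core and 0.20 for the regulators, beside -0.04 for all genes. Relative to the median of all genes, the regulators lay higher by 0.23 here and by 0.10 to 0.11 under the other scalings of the arrays, while the core lay at 0.06 here and at -0.03 to -0.05 under the others. The contrast depends on the choice of probe, as other probes of Snrpb, Snrpn and Prpf3 gave larger differences, described below. With the mean of all probes 17.9% of core genes and 12.7% of regulators were called, beside 7.34% of all genes. The class medians were then 0.07 and 0.23. These are descriptions of the lists, and the difference between the classes was not tested.

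Promoter sequence is shown for Snrp70 and Hnrpk, the genes with the largest rises, and for Hnrnpl, which fell; each has a single start in RefSeq. They were picked with the motifs in view, and Rbm38, which also fell and has a single start, holds none of the motifs searched. The 250 bases before the start are written 5′ to 3′ on the gene's strand (GRCm38.p6, RefSeq), and capitals mark the letters GCATGCGC (bound by NRF1), GGAATG (bound by the TEAD partners of Yap) and CCAAT (bound by NF-Y), on either strand. GCATGCGC stands in 2.25% of 32817 RefSeq promoters of this length, GGAATG in 12.6% and CCAAT in 33.8%. A GC box (GGGCGG), not marked here, stands in 32.7%.
Snrp70 (Snrnp70, chr7:45395743-45395992, minus strand): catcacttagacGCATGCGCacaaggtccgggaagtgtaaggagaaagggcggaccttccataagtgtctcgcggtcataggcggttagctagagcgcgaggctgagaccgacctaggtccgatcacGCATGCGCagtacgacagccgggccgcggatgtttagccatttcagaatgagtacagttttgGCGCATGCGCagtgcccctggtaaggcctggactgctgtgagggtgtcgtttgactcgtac
Hnrpk (Hnrnpk, chr13:58402118-58402367, minus strand): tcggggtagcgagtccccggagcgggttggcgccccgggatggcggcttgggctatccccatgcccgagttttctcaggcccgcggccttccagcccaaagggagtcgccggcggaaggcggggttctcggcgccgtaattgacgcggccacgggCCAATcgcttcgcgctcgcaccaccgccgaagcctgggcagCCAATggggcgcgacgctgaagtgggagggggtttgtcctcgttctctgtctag
Hnrnpl (chr7:28810640-28810889, plus strand): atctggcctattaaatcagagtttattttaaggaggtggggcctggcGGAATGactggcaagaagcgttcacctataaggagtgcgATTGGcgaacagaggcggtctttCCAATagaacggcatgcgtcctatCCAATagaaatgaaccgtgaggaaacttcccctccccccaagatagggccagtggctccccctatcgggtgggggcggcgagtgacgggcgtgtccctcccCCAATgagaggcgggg
The Snrp70 window held 3 stretches of the NRF1 letters, that of Hnrpk 2 CCAAT boxes, and that of Hnrnpl 4 CCAAT boxes and 1 TEAD match. Of the 97 promoters of the 74 members in the table, 3.09% held the NRF1 letters, 7.22% the TEAD letters, 42.3% CCAAT and 53.6% the GC box. The TEAD letters stood in 0 of the 10 risen members with a promoter and in 1 of the 2 fallen ones. The motifs were chosen with the sequences in view, and a match is a description of letters only.

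Among the Snrp genes, which encode proteins of the small nuclear ribonucleoprotein particles, 2 of 8 rose and 0 fell. These are 25% and 0%, beside 4.92% and 5.70% of all genes. With the mean of all probes 4 rose and 0 fell (50% and 0%, beside 3.35% and 3.99% of all genes). Snrp70 (now Snrnp70), the U1 protein that helps to recognise the start of the intron, was at 11.95 and 11.97 in the controls and at 13.98 and 13.93 in Salv CKO. Both Salv CKO pools lay far above both controls, and the gene rose 3.98-fold (1.99 ± 0.06, limma adjusted p = 0.00439), the largest called difference of any member. Snrpa, another U1 protein, was at 12.84 and 12.92 in the controls and at 12.87 and 12.93 in Salv CKO on its brightest probe (0.02 ± 0.07, adjusted p = 0.880; the sign turned under each other scaling). Its other probes gave 0.50 ± 0.20 and 0.69 ± 0.16, neither called, and the mean of its probes gave 0.40. The within-array log2 ratio of Snrp70 to Snrpa on their brightest probes was 1.97 higher in Salv CKO. A single factor per array cancels in such a ratio, but quantile normalisation, used for this value, can move it.

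Snrpd3, a protein of the Sm ring that encircles the small nuclear RNAs, was at 15.28 and 15.15 in the controls and at 15.79 and 15.68 in Salv CKO. The groups did not overlap, and it rose 1.43-fold (0.52 ± 0.08, limma adjusted p = 0.0260), a call held under 2 of 4 scalings. The Sm genes Snrpb (0.09 ± 0.07) and Snrpd1 (-0.20 ± 0.28) were not called. Snrpb2, of the U2 particle, stood at 5.73 and 5.07 against 6.91 and 6.65, a difference of 1.38 ± 0.35 just short of the test (adjusted p = 0.0744). Its U2 partner Snrpa1 was above background on 1 array only, with 0 and 0.03 in the controls and 4.04 and 2.35 in Salv CKO, so that its level has only a bound. Snrpn, the imprinted relative of Snrpb, was at 11.72 and 11.96 in the controls and at 11.74 and 11.68 in Salv CKO on its brightest probe (adjusted p = 0.496), while its other probes gave another picture, described below.

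The Sf3a and Sf3b genes, which encode the U2-bound complexes that hold the branch site of the intron, formed the most even family: 0 of 7 passed, and all differences lay between -0.37 and 0.15. The members of lowest p were Sf3a2, at 10.20 and 10.24 in the controls and 9.83 and 9.87 in Salv CKO (-0.37 ± 0.08, adjusted p = 0.0590), and Sf3a1, at 11.59 and 11.56 against 11.34 and 11.42 (adjusted p = 0.173). For both the Salv CKO pools lay below the controls. Sf3b1, the subunit that contacts the branch site, was at 8.79 and 8.73 against 8.91 and 8.84 (0.12 ± 0.11, adjusted p = 0.568; below 0 under median centring and as deposited). U2af2, the large subunit of the factor that binds the pyrimidine tract, was at 8.52 and 8.47 against 8.22 and 8.31 (-0.23 ± 0.13, adjusted p = 0.330).

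Of the 12 Prpf genes, homologues of yeast pre-mRNA processing factors, 0 passed the test on their brightest probes. Prpf8, the large U5 protein at the catalytic centre, stood at 11.91 and 11.98 in the controls and at 11.89 and 11.86 in Salv CKO (-0.07 ± 0.07, adjusted p = 0.598). The lowest p values were those of Prpf40b, of the U1 particle (9.73 and 9.61 against 9.08 and 9.31, -0.48 ± 0.12, adjusted p = 0.0807), and Prpf19, a ubiquitin ligase of the activated spliceosome (14.37 and 14.09 against 14.61 and 14.48, 0.32 ± 0.11, adjusted p = 0.162; -0.15 with the values as deposited). Their groups did not overlap, in opposite directions. Over the Sf3, U2af and Prpf families together the test thus called 0 of 20 genes, where 10.6% of all genes were called. Of the 20, 4 were at an unadjusted limma p under 0.05, beside 4460 of all 16675 genes. As deposited 7 of the 20 were called lower, among them Prpf8 (-0.60, adjusted p = 0.0266), Sf3a2 and Prpf40b. Of these 20, 2 were called lower with median centring (Sf3a2 and Prpf40b) and 1 with the 75th percentile (Sf3a2). Over all genes 18.6% were called lower as deposited, 11% with median centring and 7.23% with the 75th percentile.

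Among the hnRNP genes 5 of 18 rose and 1 fell, which is 27.8% and 5.56%, beside 4.92% and 5.70% of all genes. With the mean of all probes 2 rose and 1 fell (11.1% and 5.56%, beside 3.35% and 3.99% of all genes). Hnrpk (Hnrnpk), which binds C-rich RNA and DNA, was at 9.66 and 9.85 in the controls and at 11.59 and 11.57 in Salv CKO and rose 3.55-fold (1.83 ± 0.10, limma adjusted p = 0.00640). Hnrnpa2b1, an abundant repressor of exon inclusion, was at 12.08 and 11.87 against 13.65 and 13.61 and rose 3.14-fold (1.65 ± 0.09, adjusted p = 0.00661). Hnrph1 (Hnrnph1), which binds runs of G, was at 14.42 and 14.41 against 15.83 and 15.79 and rose 2.65-fold (1.40 ± 0.06, adjusted p = 0.00615). In all 3 genes the gap between the groups was many times the distance between pools of a group, and the call held under all 4 scalings. With the mean of all probes Hnrnpa2b1 stood at 1.29 ± 0.26 and was not called (adjusted p = 0.0536).

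**Figure D2:**
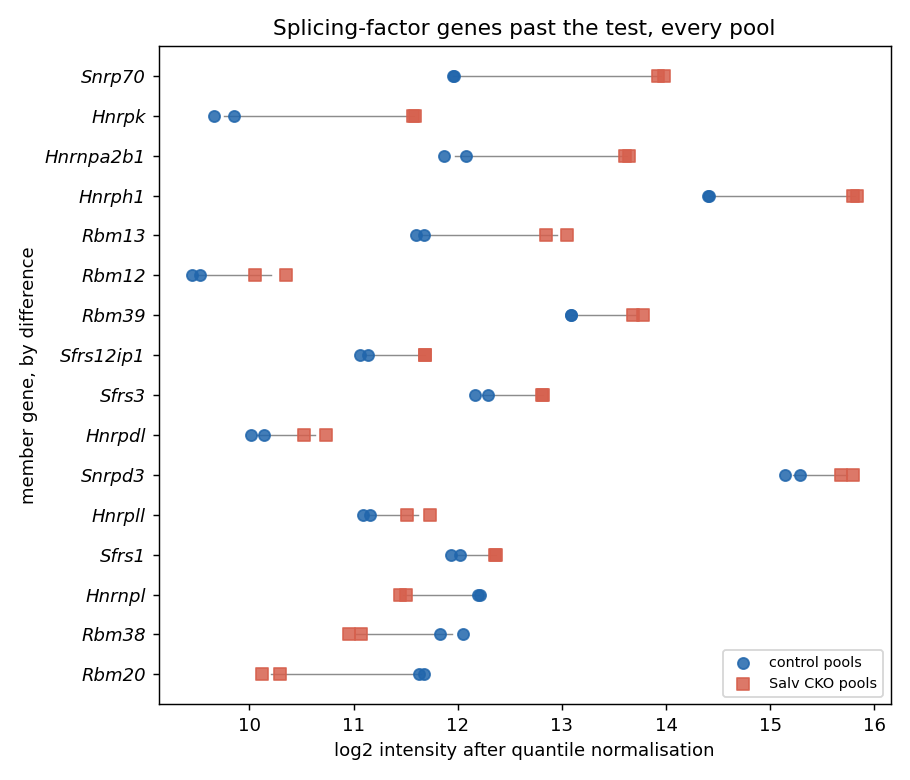
Log2 intensity in each control pool (circles) and each Salv CKO pool (squares) for the 16 called members, ordered by difference, with a line joining the group means. For every gene the pools of a group lie on one side of those of the other, with the widest gap for Snrp70 (11.95 and 11.97 against 13.98 and 13.93); levels of different genes come from different probes and are not compared.

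None of the close relatives of these genes described next was called. Hnrnpa1, the most studied partner of Hnrnpa2b1, was at 13.65 and 13.73 in the controls and at 13.74 and 14.03 in Salv CKO (0.20 ± 0.11, adjusted p = 0.352; below 0 with the median as the centre and as deposited), and the within-array log2 ratio of Hnrnpa2b1 to Hnrnpa1 was 1.46 higher in Salv CKO. Hnrnpa0 came near the threshold (0.58 ± 0.14, adjusted p = 0.0640). Hnrph2, the X-linked relative of Hnrph1, was at 6.94 and 7.23 in the controls and at 1.55 and 7.39 in Salv CKO, so 1 array alone set its difference of -2.62 ± 1.89. Hnrnpc, which coats nascent transcripts, and Hnrnpu, a chromatin and RNA scaffold, were not called, with 0.15 ± 0.10 and 0.16 ± 0.13 here and negative values with median centring and as deposited.

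The paralogues Hnrnpl and Hnrpll (Hnrnpll), which bind CA-rich RNA, moved in opposite directions on their brightest probes after quantile normalisation. Hnrnpl was at 12.22 and 12.20 in the controls and at 11.45 and 11.50 in Salv CKO, and fell 1.66-fold (-0.73 ± 0.07, limma adjusted p = 0.0101), a call that held under all 4 scalings. Hnrpll was at 11.16 and 11.09 against 11.51 and 11.73 and rose 1.41-fold (0.50 ± 0.10, limma adjusted p = 0.0456). But it was called under quantile normalisation only, and was at -0.012 with the values as deposited. Its other probes gave 0.40 ± 0.18 and -0.017 ± 0.26, neither called. The mean of its probes gave 0.29 (limma adjusted p = 0.210). The within-array log2 ratio of Hnrpll to Hnrnpl was 1.23 higher in Salv CKO, with no overlap between the groups (two-sided exact permutation p = 0.333, the smallest possible). The other risen gene, Hnrpdl (Hnrnpdl), a relative of the AU-binding protein of Hnrpd, was at 10.02 and 10.14 against 10.52 and 10.73 (0.55 ± 0.11, adjusted p = 0.0434; 2 of 4 scalings).

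Of 16 genes listed under SR names 3 rose, each by a small amount, and 0 fell. These are 18.8% and 0%, beside 4.92% and 5.70% of all genes. With the mean of all probes 2 rose and 0 fell (12.5% and 0%, beside 3.35% and 3.99% of all genes). Sfrs3 (Srsf3), the shortest of the classical SR proteins, was at 12.30 and 12.16 in the controls and at 12.81 and 12.82 in Salv CKO (0.59 ± 0.07, limma adjusted p = 0.0166). Sfrs12ip1 (Srek1ip1), which encodes a partner of the SR-like protein Srek1, was at 11.13 and 11.06 against 11.68 and 11.69 (0.59 ± 0.07, adjusted p = 0.0154). Sfrs1 (Srsf1), the founding SR protein, was at 12.02 and 11.94 against 12.37 and 12.36 (1.30-fold, 0.38 ± 0.07, adjusted p = 0.0346; -0.12 with the values as deposited). The pools of each group lay close together for all 3 genes. The calls of Sfrs3 and Sfrs12ip1 held under 2 of 4 scalings and that of Sfrs1 under quantile normalisation only.

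Of the remaining SR genes, Sfrs2 (Srsf2) was at 14.11 and 14.34 against 14.08 and 14.49 on its brightest probe (0.05 ± 0.16, adjusted p = 0.873), with overlapping groups. Sfrs10, an older name that RefSeq gives for both Tra2b and Srsf2, was at 7.52 and 7.84 against 7.65 and 8.10 (adjusted p = 0.659). In total 12 of the 16 differences lay above 0, and the family's median was 0.31 above that of all genes, and 0.22 above it under each other scaling. Sfrs8 (Sfswap), Sfrs6 and Sfrs2ip (Scaf11) were nearest the threshold among those not called (adjusted p = 0.0842, 0.0893 and 0.0940).

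The 29 numbered Rbm genes are grouped by their RNA-binding motif and do not all act in splicing. Of these 3 rose and 2 fell, which is 10.3% and 6.9%, beside 4.92% and 5.70% of all genes. With the mean of all probes 6.9% were called higher and 3.45% lower, beside 3.35% and 3.99% of all genes. The family's median difference was -0.007, beside -0.04 for all genes. Rbm20, the heart and skeletal muscle factor that represses exons of titin, was at 11.68 and 11.63 in the controls and at 10.29 and 10.12 in Salv CKO. The Salv CKO pools were well under the controls, and it fell 2.72-fold (-1.44 ± 0.09, limma adjusted p = 0.00661), a call that held under all 4 scalings. Titin itself (Ttn), 1 of the cardiomyocyte markers, stood at 13.67 and 13.87 against 12.33 and 12.39 on the brightest of its 6 probes. Titin fell by 1.41 on the log2 scale (± 0.09, limma adjusted p = 0.00661). The 16 markers, 5 of them saturated on at least 1 array, had a median difference of -0.67. Rbm20 has 1 probe here, and the share of its fall that goes with fewer or weaker heart muscle cells was not tested.

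Rbm38, which stabilises or splices transcripts downstream of p53 and in red cell maturation, was at 11.83 and 12.05 in the controls and at 10.96 and 11.07 in Salv CKO (1.90-fold lower, -0.93 ± 0.10, limma adjusted p = 0.0129). Its other probe went the opposite way, from 10.88 and 10.72 to 11.20 and 11.09 (0.34 ± 0.09, adjusted p = 0.0944), and the mean of both probes gave -0.29, which was not called. Of the 6 measured red cell markers 2 were lower and 0 higher in the same pools. Their summed intensity was 126964 to 127441 against 106140 to 106541, with the bright Hba-x saturated on 3 arrays. The part of these markers in the result was not tested.

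Rbm13, now Mak16, rose 2.48-fold, from 11.60 and 11.68 to 13.05 and 12.85 (1.31 ± 0.09, limma adjusted p = 0.00717; all 4 scalings). It is known for the assembly of the large ribosomal subunit, not for splicing. Rbm39, a U2AF-related factor that helps to choose the end of the intron, was at 13.09 in both controls and at 13.78 and 13.69 in Salv CKO (0.64 ± 0.07, adjusted p = 0.0117; 2 of 4 scalings). Rbm12 was at 9.45 and 9.53 against 10.05 and 10.35 (0.71 ± 0.13, adjusted p = 0.0366; 3 of 4 scalings).

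Other Rbm genes of known splicing role were not called. Rbm10, mutated in an X-linked syndrome with heart defects, was at 6.29 and 6.23 against 6.72 and 7.01 (0.60 ± 0.24, adjusted p = 0.197), and Rbm25, a U1-linked factor, had a difference of -0.24 ± 0.18 (adjusted p = 0.466). Rbm3, a cold-induced protein, had one of 0.30 ± 0.21 (adjusted p = 0.439; below 0 as deposited). Rbm5 and Rbm9 (Rbfox2) were above background on 2 arrays each, for Rbm9 the control arrays alone, at 4.25 and 4.56 against 2.91 and 3.04 (adjusted p = 0.172). Rbm27 had the largest fitted fall of any member, from 4.04 and 3.44 to 0.79 and 0 (adjusted p = 0.0723), but only 1 control array was above background, so no fold is given.

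How far these calls depended on the scaling can be read from the plot of differences under each scaling. Of the 16 called members 8 were called in the same direction under all 4 scalings: Snrp70, Hnrpk, Hnrnpa2b1, Hnrph1 and Rbm13 rose, and Rbm20, Rbm38 and Hnrnpl fell. The other 8, all of them rises of less than 2-fold, lost the call under at least 1 scaling. Of the 8 called under every scaling, Rbm38 was not called with a floor of 16 or 64 (limma adjusted p = 0.068 at each). Rbm38 and Hnrnpa2b1 also lost the call with the mean of all probes. The median of all genes was -0.04 after quantile normalisation, 0.0022 with arrays divided by their 75th percentile, -0.14 with arrays centred on their median and -0.41 as deposited. The members did not all move by these amounts: with median centring Snrp70 went from 1.99 to 1.76. The split of members went from 13 higher and 3 lower to 12 and 5, 7 and 7, and 5 and 15 in that order. The shares of all genes called higher and lower moved as well. They were 4.92% and 5.70%, then 4.94% and 7.23%, 3.26% and 11%, and 1.37% and 18.6%.

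**Figure D3:**
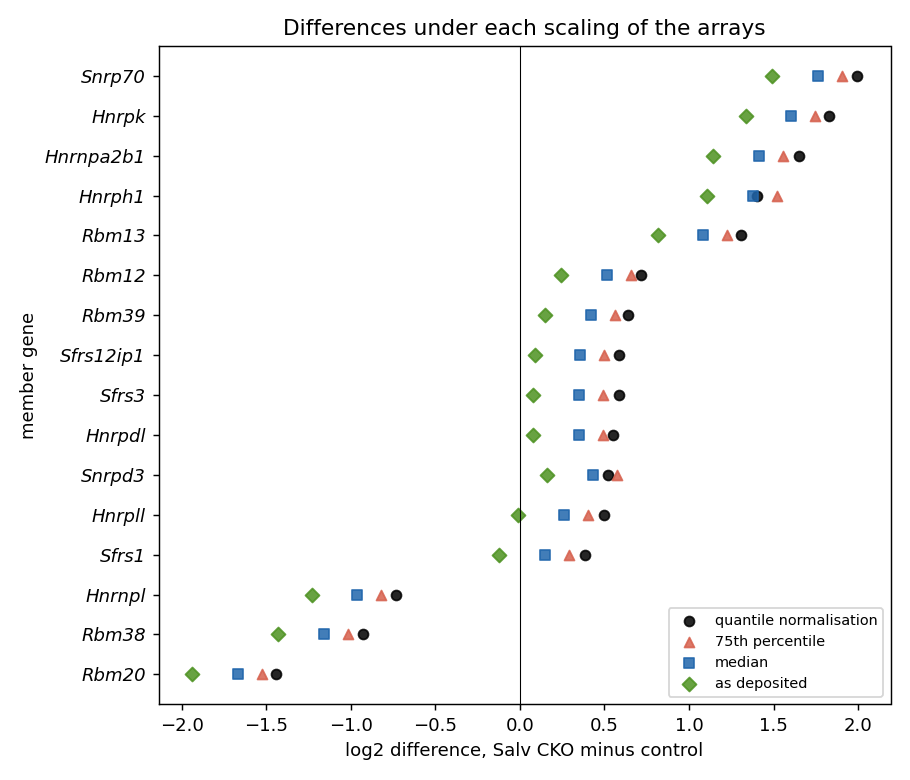
Log2 difference between Salv CKO and control for the 16 called members under quantile normalisation, division by the 75th percentile, centring on the median, and in the deposited values. The 5 largest rises and the 3 falls keep their sides of 0 throughout, whereas Hnrpll and Sfrs1 reach -0.012 and -0.12 with the values as deposited.

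Several members were measured by more than 1 probe, and for some core genes the probes told different stories. Of the 91 genes 37 had several probes, with 46 besides the brightest one, and of the 36 above background on every array 26 had the sign of the brightest probe and 10 the opposite. When all 21020 named probes were fitted together, 9 of the 46 were called higher and 0 lower, where 4.87% and 4.69% of all named probes were called. Second probes had the same direction for Hnrpk (1.46 ± 0.14), Hnrph1 (1.35 ± 0.07), Rbm12 (0.75 ± 0.12) and Sfrs3 (0.66 ± 0.08), each called itself. Of 13 other probes of called members above background on every array 11 had the same sign, and those of Rbm38 and 1 of Hnrpll did not. The third probe of Hnrpk gave 0.23 ± 0.21 and the second of Rbm13 gave 0.39 ± 0.23, neither called.

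The remaining called probes belonged to genes whose brightest probe showed no call. Snrpb went from 10.22 and 10.29 to 11.36 and 11.53 on its second probe (1.19 ± 0.09, limma adjusted p = 0.00765), against 0.09 on the brightest. Both other probes of Snrpn rose, by 1.18 ± 0.12 and 1.02 ± 0.10 (adjusted p = 0.0111 and 0.0104), against -0.13 on its brightest. The second probe of Sfrs2 went from 11.32 and 11.29 to 12.50 and 12.32 (1.11 ± 0.09, adjusted p = 0.00812), against 0.05. Prpf3, of the U4/U6 particle, gave 0.93 ± 0.13 on 1 probe (adjusted p = 0.0213) and 0.07 on its brightest. With the mean of all probes of a gene, these 4 genes were called higher (0.58 to 0.69). Under the same setting 7 of the 16 called members lost the call: Hnrnpa2b1, Hnrpdl, Hnrpll, Rbm39, Sfrs12ip1, Sfrs1 and the fallen Rbm38 (limma adjusted p of 0.0513 to 0.210). Which transcript or exon each probe matches is not known here.

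**Figure D4:**
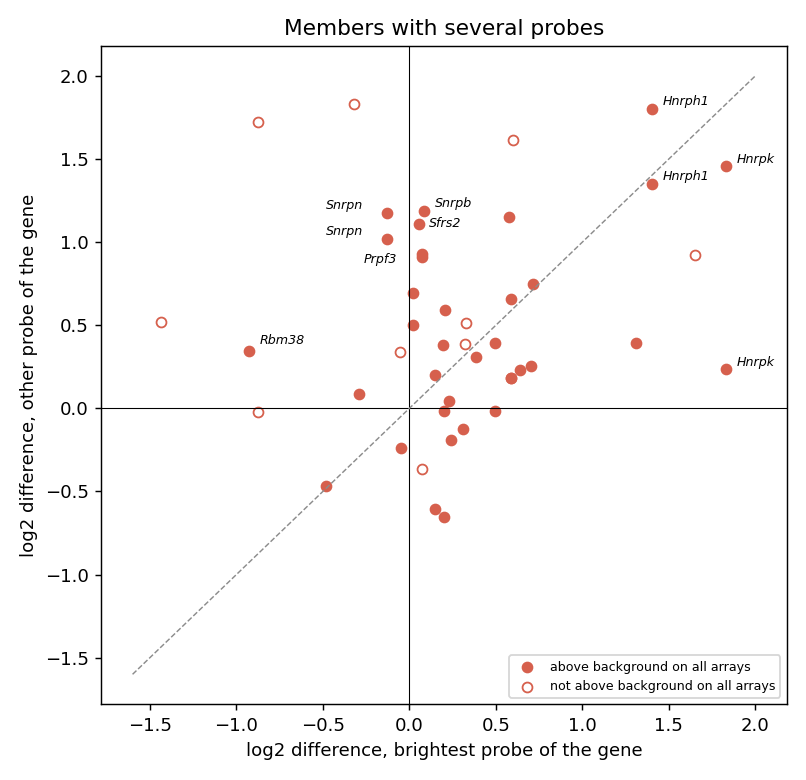
Log2 difference on the brightest probe of a gene (horizontal) against that on each of its other probes (vertical), for the 37 members with several probes; open points were not above background on all arrays and the dashed line marks equal values. The probes of Snrpb, Snrpn, Sfrs2 and Prpf3 lie near 0 on the horizontal axis and at 0.91 to 1.19 on the vertical one, and Rbm38 has opposite signs on its probes.

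Splicing genes outside the name rule were read from lists of known factors. Of 49 further measured genes of the core spliceosome and of snRNP assembly 5 rose and 2 fell. These are 10.2% and 4.08%, beside 4.92% and 5.70% of all genes. Of 7 measured genes of the SMN complex, which loads Sm rings onto small nuclear RNAs, 3 rose and 4, among them Smn1 (-0.18 ± 0.07, limma adjusted p = 0.175), lay below 0 without a call. Sip1 (Gemin2) rose by 0.87 ± 0.10, Gemin8 by 0.69 ± 0.13 and Gemin6 by 0.69 ± 0.11 (limma adjusted p = 0.0152, 0.0409 and 0.0275). The helicase Dhx15 and Plrg1, of the Prp19 complex, rose by 0.58 and 0.41. Sf1, the branch-point binding protein, and Puf60, a U2AF-related factor, fell by 0.60 each on the log2 scale (adjusted p = 0.0144 and 0.0132); both are known to act with U2AF at the end of the intron.

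Of 43 other splicing regulators 6 (14%) rose and 0 fell. For this list and the 2 below, the shares of all genes were 4.92% higher and 5.70% lower. Rbm35a (Esrp1), the epithelial splicing factor, went from 8.24 and 8.06 to 9.55 and 9.54 (1.40 ± 0.12, limma adjusted p = 0.00912), in pools in which 4 of 11 endoderm markers also rose; the part of epithelial cells in it was not tested. Tardbp, Brunol4 (Celf4), Ptbp1, Khdrbs1 and Srrm2 rose by 0.87, 0.83, 0.79, 0.75 and 0.47. Of 10 SR protein kinases and phosphatases 1 fell, the muscle kinase Srpk3, from 11.20 and 11.03 to 10.51 and 10.16 (-0.78 ± 0.15, adjusted p = 0.0376). Of 6 measured exon junction complex genes 0 were called by limma, with 1 at an unadjusted p under 0.05. The medians of these 4 lists, in the order given, were 0.01, 0.18, -0.06 and -0.15, beside -0.04 for all genes.

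Expression across the families was broad, as the probes with the highest and lowest mean in each show. These were Snrpd3 (15.47) and Snrpa1 (1.60) for Snrp, Sf3b3 (13.44) and Sf3b1 (8.82) for Sf3, and Prpf19 (14.39) and Prpf4b (1.01) for Prpf. For the regulators they were Sfrs2 (14.26) and Sfrs18 (2.34), Hnrnpc (15.29) and Hnrpa3 (4.23), and Rbm39 (13.41) and Rbm27 (2.07). In total 80 of the 91 genes were above background on every array, 9 on some arrays and 2 (Prpf4b and Sfrs18) on none. Different probes bind with different strength, so these values do not rank the genes.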

How the data were processed

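The authors deposited linear intensities, 1 per probe. Of these 3.37 to 5.99% per array lie below 0, and all values of an array are whole multiples (within 0.02) of 1 factor, 0.891 to 1.03. Scanner, software and scaling: not given in the sources used here. Per the labels, amplified RNA was coupled to Cy5, with 1 sample per array. Median intensities were 71.1 to 101, and the number of arrays limits the precision.

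Arrays were brought to a common distribution by quantile normalisation (limma 3.58.1, R 4.3.3), floored at 1 and put on the log2 scale. Background was set at an intensity of 16. Each gene was represented by its probe of highest mean over the 4 arrays. Genes were tested two-sided with limma (lmFit, then eBayes with trend, prior degrees of freedom 2.92) and adjusted by Benjamini-Hochberg over 16675 genes. The pools are called biological replicates, and how they were made is not given. The p-values thus set each difference against the spread between these pools, which limma moderates over the whole table.

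Of the 91 symbols 60 are official in RefSeq (GRCm38.p6), 30 are synonyms and 1 is ambiguous. Every called member is named, with the 2 of lowest p in families without a call, the extremes of intensity and a list of well-known members; near-threshold genes, other probes and pairs of relatives were chosen after their values were seen. The members and lists were chosen with earlier results of these data known. The procedure was run on simulated data whose variances were drawn from the limma fit. Such data cannot check that fit itself. Alternatives covered scaling, floor, filter, trend, probe choice, the replicate block and each array left out.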

Additional observations from a re-analysis of the deposited data

How the results depend on the processing

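With arrays centred on their median limma called 543 genes higher and 1835 lower, among them 7 and 7 members (core 2 lower, regulators 5 and 5), and the class medians were -0.17 (core) and -0.033 (regulators). With the 75th percentile 5 members were lower (core 1), and the medians were -0.051 and 0.11. As deposited, 229 genes were higher and 3101 lower, with 5 and 15 members (core 1 and 8, regulators 4 and 7), medians of -0.44 and -0.30, and Sav1 at -0.72 (called). Calls were 46.3% higher after quantile normalisation and 22.8%, 40.6% and 6.88% under these scalings. A floor of 16 gave 253 and 228 genes, with 7 members higher (core 1, regulators 6) and a core median of 0.0091; a floor of 64 gave 257 and 234, with 7 (1 and 6) and a core median of 0. Testing the 12402 genes above background on all arrays gave 1239 and 1437, with 6 members lower (core 2). Without the intensity trend limma called 0 genes in either direction (3578 at an unadjusted p under 0.05, 28 of them members), so 0 core and 0 regulator genes. The mean of all probes gave 5 core and 6 regulator genes higher and a core median of 0.072. Counting Rbm17, Rbm22 and Rbm25 as core gave a core median of -0.044.

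With 1 array left out every count was 0 for all genes, members, core and regulators. The medians then ranged from -0.022 to 0.040 (core) and from 0.12 to 0.27 (regulators). The replicate block gave 1016 and 1195 genes, with 14 members higher and 3 lower. The numbers in the titles are not stated to pair the pools, and deviations of same-numbered arrays correlated at 0.17 over genes above background.

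Signs turned as follows, with none of these values called except where stated. As deposited, Hnrpll was at -0.012, Sfrs1 -0.12, Rbm3 -0.18, Snrpa -0.49, Sf3b1 -0.29, Sfrs2 -0.41, Sfrs10 -0.18, Hnrnpa1 -0.31, Hnrnpc -0.32, Hnrnpu -0.35 and Prpf19 -0.15. With median centring Snrpa was at -0.22, Sf3b1 -0.023, Sfrs2 -0.14, Hnrnpa1 -0.037, Hnrnpc -0.046 and Hnrnpu -0.080, and with the 75th percentile Snrpa -0.077 and Rbm5 0.056. With the mean of probes Snrpn was at 0.69 (called) and Hnrnpc at -0.084. With 1 array left out, Rbm5 ranged from -1.23 to 0.70, Snrpa from -0.020 to 0.064, Sfrs2 from -0.15 to 0.26, Sfrs10 from -0.036 to 0.42 and Hnrnpu from -0.014 to 0.32. The cause of these changes was not tested.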
